A study of Mus musculus with 24 samples.

Results

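The genes described here were 8 matrix metalloproteinases (Mmp2, Mmp3, Mmp8, Mmp9, Mmp10, Mmp12, Mmp14 and Mmp19) and 2 tissue inhibitors of metalloproteinases (Timp1 and Timp3), 10 genes in all, found by symbol among the 36109 genes of the lung table and the 36595 genes of the retina table. Each of the 10 genes had a row in both tables. Gasdermin D (GSDMD) is the pore-forming protein of pyroptosis, and the study asked how its loss alters neonatal lungs and retinas exposed to hyperoxia. RNA from 12 lungs and 12 retinas was sequenced, with 4 groups of 3 mice per tissue. Wild-type (WT) mice breathed room air (the WT-RA group) or elevated oxygen (the WT-O2 group), as did GSDMD-KO mice (the KO-RA and KO-O2 groups). GSDMD-KO mice were C57/B6 mice homozygous for a global CRISPR/Cas9 deletion within an exon of Gsdmd, present in every cell from conception, and WT mice were their littermates. Pups whose lungs were used breathed 85% or 21% oxygen over postnatal days 1 to 14, and the lungs were taken on day 15. Retinas came from pups kept in 75% oxygen from postnatal day 7 to 12 and then returned to room air, or from pups kept in room air, and were taken on day 18, so retinal O2 groups had recovered in room air before collection.

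Matrix metalloproteinases (MMPs) are zinc-dependent endopeptidases that are mostly secreted as inactive proenzymes and, once cleaved, cut collagens, elastin, proteoglycans and other matrix and cell-surface proteins. Tissue inhibitors of metalloproteinases (TIMPs) bind active MMPs and block them. In the neonatal lung the balance between the enzymes and inhibitors is known for its role in the remodeling of alveolar walls after oxygen injury, and in the oxygen-exposed retina for the breakdown of vascular basement membrane as new vessels sprout.

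Of the 10 genes, 4 lie on chromosome 9 within a cluster of 10 MMP genes that spans 427 kb (GRCm38, 7272514 to 7699585): Mmp12 (7344381 to 7369499), Mmp3 (7445822 to 7455975), Mmp10 (7502352 to 7510240) and Mmp8 (7558456 to 7568485), all on the plus strand. The remaining members lie apart, with Mmp2 on chromosome 8, Mmp9 on chromosome 2, Mmp14 on chromosome 14, Mmp19 and Timp3 on chromosome 10, and Timp1 on chromosome X. The deposited tables carry no coordinates, and these positions come from GENCODE release M21. Mmp12 overlaps the antisense gene Mmp1b by 1261 bases, and whether counting used strand was not stated, but Mmp1b had at most 1 count in any lung.

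The promoter sequence is shown for the genes whose lung RNA moved most with hyperoxia (Mmp10, Mmp3 and Timp1) and for the gene that differed between genotypes in room air (Mmp12). Each is the plus strand, 5′ to 3′, of the 150 bases before a RefSeq transcription start (GRCm38.p6), with any AP-1 motif TGANTCA in capitals. The windows are chr9:7502192-7502341 for Mmp10, chr9:7445672-7445821 for Mmp3, chr9:7347224-7347373 for the downstream start of Mmp12, and chrX:20870016-20870165 for Timp1.
Mmp10: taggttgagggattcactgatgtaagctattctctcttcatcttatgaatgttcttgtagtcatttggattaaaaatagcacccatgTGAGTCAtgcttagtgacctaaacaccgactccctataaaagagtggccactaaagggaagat
Mmp3: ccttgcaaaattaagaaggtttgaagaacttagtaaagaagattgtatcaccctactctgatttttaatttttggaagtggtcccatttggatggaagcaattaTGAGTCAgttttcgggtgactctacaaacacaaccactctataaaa
Mmp12: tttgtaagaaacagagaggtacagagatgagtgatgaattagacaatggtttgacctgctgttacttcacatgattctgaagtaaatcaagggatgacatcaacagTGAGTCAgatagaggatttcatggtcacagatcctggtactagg
Timp1: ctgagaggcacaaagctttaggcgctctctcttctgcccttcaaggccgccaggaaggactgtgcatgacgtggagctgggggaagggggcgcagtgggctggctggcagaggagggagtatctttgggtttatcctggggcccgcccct
RefSeq promoter windows (250 bases before to 50 after a start) were matched for 7 of the 10 genes, with 2 windows for Mmp12, and TGANTCA was searched on both strands of each. The motif was found in 3 of these 8 windows, those of Mmp10, Mmp3 and the downstream start of Mmp12, and in 7.81% of the 32851 promoter windows of that length. In each of the 3 it read TGAGTCA, beginning 63 bases before the start in Mmp10, 46 in Mmp3 and 44 in Mmp12. The window of Timp1 held none of these letters, nor did those of Timp3, Mmp8, Mmp14 and the upstream start of Mmp12. A match of letters describes the sequence and is not evidence of binding.

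Mmp3 and Mmp10 are close paralogs, and reads from sequence they share can be assigned to either. Their longest protein-coding transcripts shared 202 words of 31 bases, whereas no other pair of the 10 genes shared any. The longest identical stretch, 104 bases of coding sequence across the join of exons 2 and 3 of both genes, is shown as the longest sequence found in both. In GRCm38 it covers chr9:7447092-7447177 and chr9:7447268-7447285 in Mmp3, and chr9:7503305-7503390 and chr9:7503481-7503498 in Mmp10.
Mmp3 and Mmp10: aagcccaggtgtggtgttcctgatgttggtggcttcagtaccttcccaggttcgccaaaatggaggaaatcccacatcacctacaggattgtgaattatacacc
In 3 of 3 KO-O2 lungs the counts of both genes were fractions that summed to whole numbers (1308, 1057 and 931), and in the 9 lungs of the other groups both counts were whole. The division of reads between the paralogs was therefore an estimate in KO-O2, which bears on every KO-O2 value of both genes, and summed values are given for the hyperoxia changes of Mmp3 and for its difference between KO-O2 and WT-O2.

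Levels are given in CPM, counts per 1000000 counts of a library, from the authors' expected counts, scaled here by TMM, a normalization for library composition. A gene was called when edgeR's quasi-likelihood test gave an adjusted p (Benjamini-Hochberg) under 0.1 and a p under 0.05 with a fold change of at least 2, over all 16819 tested genes in the lung or 19173 in the retina. Total counts ran from 28763661 to 29604254 in the lung and from 24863257 to 29093035 in the retina. Gsdmd itself was 40.6 to 42.3 CPM in WT-RA and 32.1 to 36.4 CPM in WT-O2 lungs, against 22.6 to 24.8 CPM in KO-RA and 11.7 to 16.3 CPM in KO-O2 lungs, so the lung labels and the targeted RNA went the same way. In the retina Gsdmd was 0.4 to 5.69 CPM in WT and 0.647 to 2.95 CPM in KO libraries, and the library labelled WT-RA replicate 2 (0.4 CPM) lay below every library labelled KO, so the retinal genotype could not be checked in this way. Lung epithelium markers summed to 19734 to 34059 CPM in the lungs and retinal neuron markers to 42745 to 66441 CPM in the retinas, with no marker of either list at 0. Lens markers summed to 17316 and 54012 CPM in 2 WT-RA retinas (replicates 2 and 3) and to 29412 CPM in 1 KO-RA retina (replicate 3), against at most 233 CPM in the other 9. Liver markers summed to 171 CPM in 1 KO-O2 lung (replicate 1) and to 1.38 to 2.98 CPM in the other 11, and leaving it out changed no call of the 10 genes. Y-linked RNA was present in 1 of 6 WT lungs (a WT-O2 lung) and 5 of 6 KO lungs, and in all 6 room-air retinas but 2 of 6 O2 retinas (1 of each genotype), so sex overlapped with genotype in the lung and with exposure in the retina. In such bulk samples fewer cells of a type and less RNA per cell cannot be told apart.

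In the lung, hyperoxia raised 6 of the 10 genes in WT (Mmp10, Timp1, Mmp3, Mmp2, Mmp19 and Timp3) and 5 of the 10 in GSDMD-KO (Mmp10, Timp1, Mmp3, Mmp12 and Mmp2), and none fell in either genotype. Among all tested genes, 5.04% were called higher and 6.57% lower in WT, and 4.57% higher and 6.03% lower in GSDMD-KO. The 10 genes and the lists below were chosen with earlier results of these data known. These shares therefore describe the genes and do not test them as a set. All 10 genes passed the filter on low counts in the lung, but Mmp10 passed it through the hyperoxic groups only, where it had to differ, and the counts of 6 and 5 include it. Both hyperoxia comparisons have their own control mice.

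**Figure D1:**
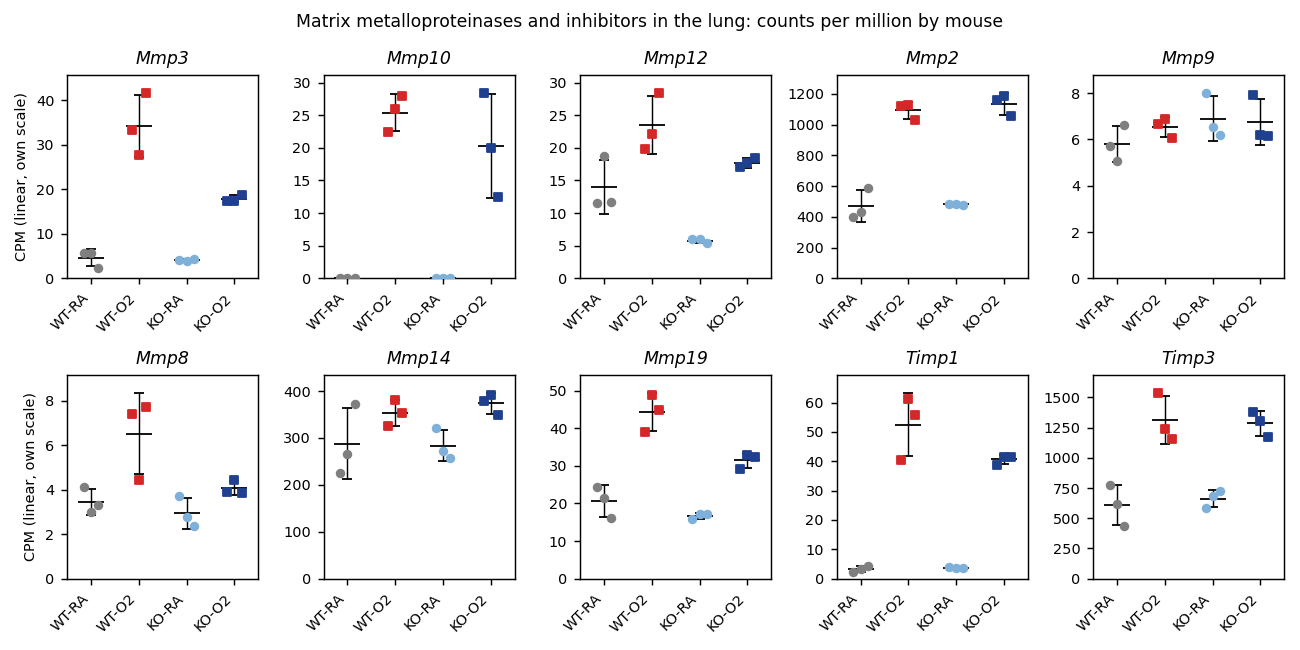
CPM (linear axis, a scale of its own for each gene) of the 10 genes in the lung, 1 point per mouse, by group, with the black line and bar giving the mean and SD of 3 mice. Mmp10 sits at 0 to 0.0336 CPM in room air and at 12.4 to 28.4 CPM in hyperoxia, and Mmp12 is lower in KO-RA than in every other group.

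The stromelysins Mmp3 and Mmp10 cut proteoglycans, laminin and fibronectin and activate other pro-MMPs. Mmp10 was close to absent from room-air lungs, with 0, 0.0336 and 0 CPM in WT-RA and 0 in all 3 KO-RA lungs. It reached 22.4, 25.9 and 27.9 CPM in WT-O2 and 28.4, 20 and 12.4 CPM in KO-O2. Every hyperoxic lung was thus far above every room-air lung, and the hyperoxic WT and KO lungs overlapped. Taking 3 counts per library as the floor (0.105 and 0.103 CPM), Mmp10 was at least 242-fold higher with hyperoxia in WT and at least 196-fold higher in GSDMD-KO.

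Mmp3 was detected in all room-air lungs, at 5.79, 5.75 and 2.37 CPM in WT-RA and 4.2, 3.83 and 4.27 CPM in KO-RA. It stood at 33.2, 27.8 and 41.6 CPM in WT-O2 and at 17.4, 17.4 and 18.8 CPM in KO-O2. All 3 KO-O2 lungs lay below all 3 WT-O2 lungs, and all hyperoxic lungs lay above all room-air lungs. Mmp3 rose 7.37-fold in WT (log2 2.88 ± 0.26 SE, adjusted p = 2.9e-06) and 4.35-fold in GSDMD-KO (log2 2.12 ± 0.26, adjusted p = 4.1e-05) by edgeR. Summing Mmp3 with Mmp10 gave log2 changes of 3.68 in WT and 3.21 in GSDMD-KO.

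Mmp12, the macrophage metalloelastase, degrades elastin and is made mainly by macrophages. In room air it was 11.5, 18.7 and 11.7 CPM in WT and 5.96, 5.98 and 5.45 CPM in GSDMD-KO. In hyperoxia it was 19.9, 22.2 and 28.4 CPM in WT and 17, 17.7 and 18.5 CPM in GSDMD-KO. KO-RA lungs had the lowest values with no overlap with any other group, whereas the highest WT-RA lung (18.7 CPM) lay above the KO-O2 lungs and close to the lowest WT-O2 lung. In GSDMD-KO lungs Mmp12 rose 3.07-fold with hyperoxia (log2 1.62 ± 0.18, edgeR adjusted p = 9.8e-06). In WT lungs it was 1.69-fold higher (log2 0.75 ± 0.17, edgeR adjusted p = 0.0029), under the 2-fold limit, and without WT-RA replicate 2 it was called (log2 1.03).

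Mmp2 (gelatinase A) cleaves denatured collagen and basement membrane collagen and is made largely by fibroblasts, and Mmp14, a membrane-type MMP, is its main activator. Mmp2 was 396, 429 and 590 CPM in WT-RA and 481, 483 and 479 CPM in KO-RA lungs. It was 1122, 1128 and 1027 CPM in WT-O2 and 1162, 1187 and 1054 CPM in KO-O2 lungs. The hyperoxic lungs were all higher than the room-air lungs, and the genotypes overlapped in hyperoxia. Mmp2 rose 2.32-fold in WT (log2 1.21 ± 0.12, adjusted p = 3.0e-06) and 2.36-fold in GSDMD-KO (log2 1.24 ± 0.12, adjusted p = 2.8e-06) in edgeR's test. Fibroblast markers summed to 2456 to 2760 CPM in WT-RA, 2525 to 2680 in WT-O2, 2479 to 2526 in KO-RA and 2112 to 2672 in KO-O2, which overlapped, while 3 of the 8 markers were called higher with hyperoxia and 1 lower in each genotype. Their part in the Mmp2 change was not tested. Mmp14 ran from 225 to 373 CPM in room air and from 326 to 392 CPM in hyperoxia over both genotypes, with log2 differences of 0.29 ± 0.15 in WT and 0.40 ± 0.15 in GSDMD-KO (edgeR adjusted p = 0.14 and 0.049), both under the fold limit.

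Mmp19, a secreted MMP that acts on basement membrane proteins, was 24.5, 21.4 and 16.1 CPM in WT-RA and 38.9, 48.9 and 44.9 CPM in WT-O2. In GSDMD-KO it was 15.8, 17.1 and 17.2 CPM in room air and 29.2, 32.9 and 32.4 CPM in hyperoxia. Each hyperoxic group lay above both room-air groups, and KO-O2 lay wholly below WT-O2. Mmp19 rose 2.14-fold in WT (log2 1.1 ± 0.13, edgeR adjusted p = 1.3e-05), although without WT-RA replicate 3 it fell under the fold limit (log2 0.95). In GSDMD-KO it was 1.89-fold higher (log2 0.92 ± 0.13, edgeR adjusted p = 8.2e-05), which missed the fold limit.

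Mmp8, the neutrophil collagenase, and Mmp9 (gelatinase B), which neutrophils and macrophages release, were low in every lung. Mmp8 was 2.99 to 4.12 CPM in WT-RA and 4.44 to 7.73 CPM in WT-O2, 2.37 to 3.72 CPM in KO-RA and 3.85 to 4.43 CPM in KO-O2. Its log2 difference with hyperoxia was 0.91 ± 0.23 in WT and 0.46 ± 0.23 in GSDMD-KO (edgeR adjusted p = 0.0048 and 0.13), neither called, though leaving out WT-RA replicate 1 or WT-O2 replicate 2 gave a call in WT (log2 1.05 and 1.13). Mmp9 was 5.08 to 8.00 CPM over all 12 lungs, with log2 differences of 0.17 ± 0.16 in WT and -0.03 ± 0.16 in GSDMD-KO (edgeR adjusted p = 0.42 and 0.90). Neutrophil markers summed to 43.9 to 64.1 CPM in the WT lungs, 46.8 to 122 CPM in KO-RA and 38.1 to 45.4 CPM in KO-O2, and none of the 10 markers was at 0. The highest neutrophil sum, 122 CPM, was in the KO-RA lung with the highest Mmp8 and Mmp9 of its group (3.72 and 8.00 CPM), and its part in these values was not tested.

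Timp1, a secreted inhibitor with a broad range among soluble MMPs, changed most of the inhibitors. It was 2.37, 3.23 and 4.47 CPM in WT-RA and 4.00, 3.72 and 3.53 CPM in KO-RA lungs. It was 40.4, 61.1 and 55.7 CPM in WT-O2 and 38.9, 41.6 and 41.6 CPM in KO-O2 lungs. The room-air and hyperoxic lungs were widely separated, and KO-O2 overlapped only the lowest WT-O2 lung. Timp1 rose 15.6-fold in WT (log2 3.96 ± 0.20, adjusted p = 8.8e-09) and 10.9-fold in GSDMD-KO (log2 3.44 ± 0.19, adjusted p = 2.7e-08) by edgeR.

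Timp3, an inhibitor held in the extracellular matrix, was abundant in all lungs. It was 774, 620 and 437 CPM in WT-RA and 1534, 1243 and 1157 CPM in WT-O2, and 582, 685 and 722 CPM in KO-RA and 1376, 1307 and 1173 CPM in KO-O2. The hyperoxic lungs of both genotypes lay in 1 range above all room-air lungs. Timp3 rose 2.15-fold in WT (log2 1.1 ± 0.17, edgeR adjusted p = 2.4e-04) and was 1.94-fold higher in GSDMD-KO (log2 0.96 ± 0.17, edgeR adjusted p = 7.7e-04), just under the fold limit. Without WT-RA replicate 3 or WT-O2 replicate 1 the WT value missed the limit (log2 0.92 and 0.98), and without KO-O2 replicate 3 or KO-RA replicate 3 the KO value passed it (log2 1.01 and 1.02), so the fold limit does not separate the genotypes here.

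**Figure D2:**
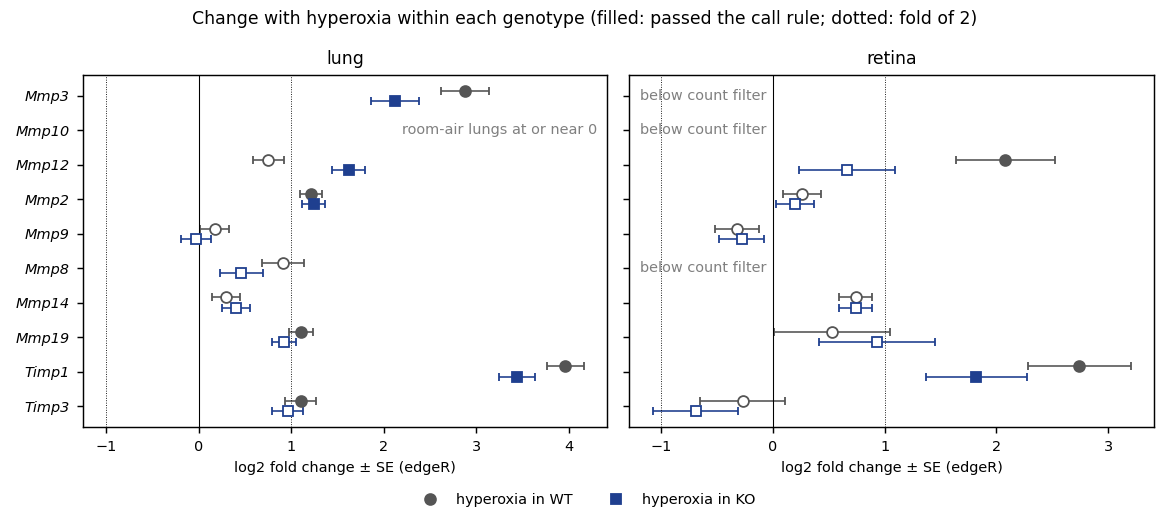
Log2 fold change with hyperoxia (x axis, edgeR, bars are SE, 3 mice per group) in WT (circles) and GSDMD-KO (squares), in the lung (left) and retina (right), with filled symbols for called changes. Mmp10 is not drawn in the lung, where it was close to absent in room air. Mmp3, Mmp8 and Mmp10, below the count filter, are not drawn in the retina. Timp1 is filled in both genotypes and both tissues, with log2 values of 3.96 and 3.44 in the lung and 2.74 and 1.82 in the retina.

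Between the genotypes, Mmp12 in room air was the one called difference among the 10 genes in the lung. KO-RA lungs had 2.41-fold less Mmp12 (log2 -1.27 ± 0.18, edgeR adjusted p = 0.018), where 0.137% of all tested genes were called in this comparison. KO-RA lungs lay wholly below WT-RA lungs for 7.9% of all tested genes. Macrophage markers summed to 624 to 1061 CPM in WT-RA and 370 to 387 CPM in KO-RA, with 9 of 10 markers lower in mean in KO-RA and none at 0. None of the 10 was called by edgeR, and 8 had an unadjusted p under 0.05, against 10.5% of all tested genes. In hyperoxia the sum was 495 to 677 CPM in WT and 393 to 540 CPM in GSDMD-KO. With hyperoxia in WT it thus did not rise as Mmp12 did, although 7 of the 10 markers were higher in mean. By edgeR 2 of the markers were called higher and 2 lower there. The part of the macrophage signal in the Mmp12 difference was not tested. With sex as a covariate the log2 difference was -1.41 and no longer called (adjusted p = 0.12), and leaving out KO-RA replicate 2 or 3 gave log2 values of -1.30 and -1.23 with an adjusted p of 0.15 in both fits.

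None of the 10 genes was called between KO-O2 and WT-O2 lungs by edgeR or by DESeq2, 5 of them had an unadjusted p under 0.05 against 6.21% of all tested genes, and 0.0238% of all tested genes were called. The groups did not overlap for 4 genes, each lower in KO-O2, as was so for 5.8% of all tested genes: Mmp3 (log2 -0.94 ± 0.23, adjusted p = 0.40), Mmp8 (log2 -0.68 ± 0.22, adjusted p = 0.59), Mmp19 (log2 -0.49 ± 0.13, adjusted p = 0.42) and Mmp12 (log2 -0.41 ± 0.17, adjusted p = 0.76), all by edgeR. By DESeq2 the adjusted p of Mmp3 was 0.023 at the same log2 difference of -0.94, under the fold limit. Summed with Mmp10, its paralog, Mmp3 differed by log2 -0.65 (adjusted p = 0.74). Timp1 differed by log2 -0.36 ± 0.16 and Mmp10 by -0.33 ± 0.25, both with overlapping groups. Mmp14, Mmp2, Mmp9 and Timp3 differed by between log2 -0.03 and 0.08. Macrophage markers summed to 495 to 677 CPM in WT-O2 and 393 to 540 CPM in KO-O2, which overlapped. All 10 were lower in mean in KO-O2, but none was called by edgeR and 1 had an unadjusted p under 0.05. Their part in these values was not tested. Erythroid markers, 6 genes with none at 0, summed to 1806 to 2583 CPM in WT-O2 and 3723 to 18777 CPM in KO-O2, and their part was not tested either.

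The interaction, the test of whether the hyperoxia change itself differed between genotypes, called none of the 10 genes in the lung by edgeR or DESeq2. By edgeR 0.00595% of all tested genes were called. An unadjusted p under 0.05 was found for 1 of the 10 genes, against 6.72% of all tested genes. That gene was Mmp12 (log2 0.86 ± 0.25 more in GSDMD-KO, edgeR adjusted p = 0.46). The next were Mmp3 (log2 -0.76 ± 0.35, adjusted p = 0.75) and Timp1 (log2 -0.52 ± 0.27, adjusted p = 0.79). The larger WT increase of Mmp3 and the larger KO increase of Mmp12 are therefore not shown to differ between the genotypes.

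**Figure D3:**
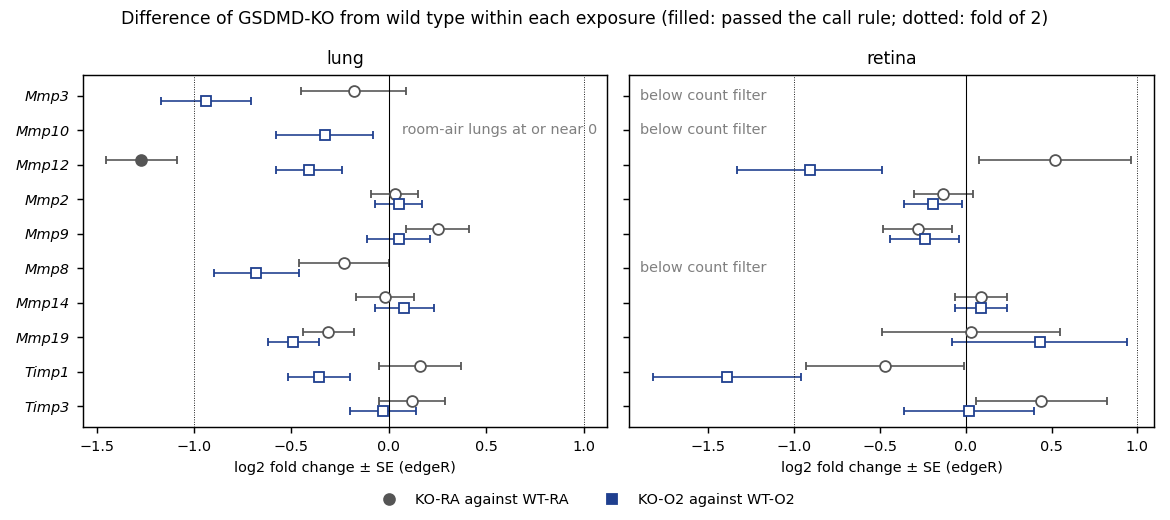
Log2 difference of GSDMD-KO from WT (x axis, edgeR, bars are SE, 3 mice per group) in room air (circles) and hyperoxia (squares), in the lung (left) and retina (right), with filled symbols for called differences. The 1 filled symbol is Mmp12 in room-air lungs at -1.27. Mmp10 in room-air lungs is not drawn, nor are Mmp3, Mmp8 and Mmp10 in the retina.

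In the retina 3 of the 10 genes (Mmp3, Mmp8 and Mmp10) did not pass the filter on low counts. Hyperoxia followed by recovery raised 2 of the 7 tested genes in WT (Timp1 and Mmp12) and 1 of 7 in GSDMD-KO (Timp1), and none fell. Among all tested genes 1.77% were called higher and 0.266% lower in WT, and 1.64% higher and 0.553% lower in GSDMD-KO.

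Timp1 was 0.949, 2.23 and 1.85 CPM in WT-RA retinas and 5.24, 17.8 and 10.5 CPM in WT-O2 retinas. In GSDMD-KO it was 0.710, 1.42 and 1.51 CPM in room air and 4.01, 5.03 and 3.75 CPM after hyperoxia. Every O2 retina was above every room-air retina, and the 3 WT-O2 retinas were widely spread and all above the 3 KO-O2 retinas. Timp1 rose 6.69-fold in WT (log2 2.74 ± 0.46, adjusted p = 0.012) and 3.53-fold in GSDMD-KO (log2 1.82 ± 0.45, adjusted p = 0.049) by edgeR. The KO call was lost when the 3 lens-rich libraries were left out (log2 2.01, adjusted p = 0.11), with sex as a covariate (log2 1.56, adjusted p = 0.15), and without KO-RA replicate 1 or 2 or KO-O2 replicate 2 (log2 1.55, 1.95 and 1.69). The WT call held with sex as a covariate (log2 2.37, edgeR adjusted p = 0.091) and without each of these mice. Without the lens-rich libraries the WT log2 value was 3.53, but replicate 1 (0.949 CPM) was then the only WT-RA retina.

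Mmp12 was 0.283, 0.709 and 0.679 CPM in WT-RA and 1.67, 2.56 and 3.01 CPM in WT-O2 retinas, which did not overlap. In GSDMD-KO it was 0.778, 0.986 and 0.659 CPM in room air and 1.05, 1.83 and 0.944 CPM after hyperoxia, which overlapped. These are small levels, resting on 7.08 to 88.5 counts per retina. Mmp12 rose 4.24-fold in WT (log2 2.08 ± 0.44, edgeR adjusted p = 0.036), and its log2 difference in GSDMD-KO was 0.66 ± 0.43 (edgeR adjusted p = 0.43). The WT call was lost with sex as a covariate (log2 2.19, adjusted p = 0.12) and without WT-O2 replicate 2 or 3 or WT-RA replicate 1 (log2 2.04, 1.90 and 1.76). Microglia markers summed to 24.9 to 38.0 CPM in WT-RA and 44.0 to 67.2 CPM in WT-O2, and to 27.3 to 40.1 CPM in KO-RA and 51.1 to 65.7 CPM in KO-O2, with none at 0. Their part in the Mmp12 change was not tested.

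**Figure D4:**
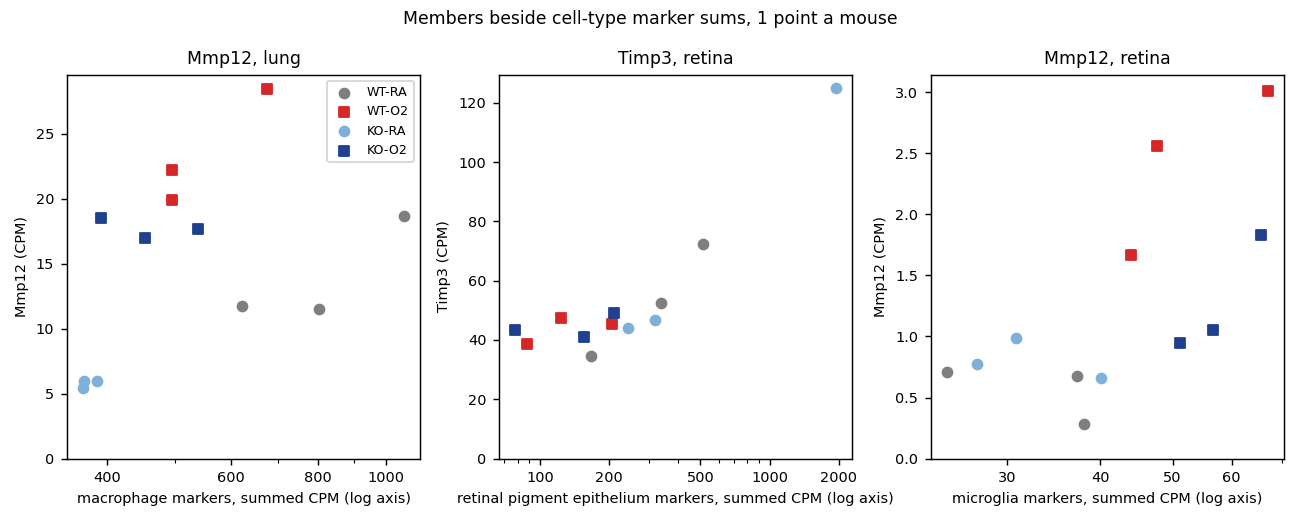
Mmp12 in the lung against summed macrophage markers (left), and Timp3 (middle) and Mmp12 (right) in the retina against summed pigment epithelium and microglia markers, in CPM with a log x axis, 1 point per mouse. KO-RA lungs are lowest in both Mmp12 (5.45 to 5.98 CPM) and macrophage markers (370 to 387 CPM), and 1 KO-RA retina is highest in both Timp3 (125 CPM) and pigment epithelium markers (1955 CPM).

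Mmp14 was 12.2, 12.1 and 13.9 CPM in WT-RA and 20.4, 24.4 and 19.2 CPM in WT-O2 retinas, and 13.6, 13.9 and 13.3 CPM in KO-RA and 17.5, 24.1 and 26.3 CPM in KO-O2. The O2 retinas of both genotypes lay above all room-air retinas. Its log2 difference was 0.74 ± 0.15 in each genotype, 1.67-fold (edgeR adjusted p = 0.027 in WT and 0.022 in GSDMD-KO), under the fold limit. Mmp2 was 11.5 to 20 CPM, Mmp9 10.9 to 23.9 CPM and Mmp19 0.448 to 2.40 CPM over the 12 retinas, and none was called. Their log2 differences with hyperoxia were 0.26, -0.32 and 0.53 in WT and 0.20, -0.28 and 0.93 in GSDMD-KO.

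Timp3 was 34.5, 52.3 and 72.3 CPM in WT-RA and 44.1, 46.8 and 125 CPM in KO-RA retinas, against 38.8 to 47.5 CPM in WT-O2 and 41.1 to 49.2 CPM in KO-O2. The room-air retinas were spread widely and contained the range of the O2 retinas. The 3 highest values, 52.3, 72.3 and 125 CPM, were those of the 3 lens-rich libraries (WT-RA replicates 2 and 3 and KO-RA replicate 3). The part of lens RNA in the Timp3 values was not tested. Retinal pigment epithelium, a known source of Timp3 outside the neural retina, had markers that summed to 1955 CPM in the KO-RA retina with 125 CPM of Timp3 and to 77.9 to 511 CPM in the other 11, with the second highest sum (511 CPM) in the WT-RA retina with 72.3 CPM. None of the 8 markers was at 0, and their part in the Timp3 values was not tested. The log2 difference with hyperoxia was -0.27 ± 0.38 in WT and -0.69 ± 0.38 in GSDMD-KO (edgeR adjusted p = 0.78 and 0.35).

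**Figure D5:**
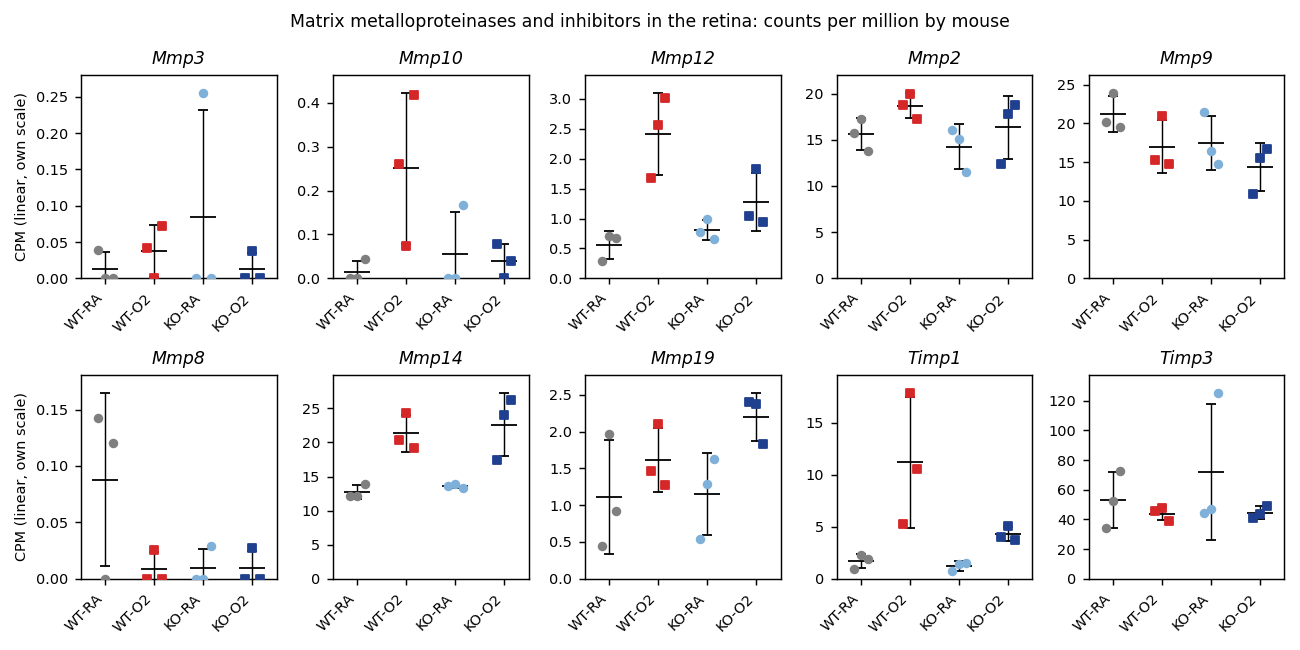
CPM (linear axis, a scale of its own for each gene) of the 10 genes in the retina, 1 point per mouse, by group, with the black line and bar giving the mean and SD of 3 mice. Timp1 is at 0.710 to 2.23 CPM in room air and at 3.75 to 17.8 CPM after hyperoxia, and Mmp3, Mmp8 and Mmp10 stay under 0.5 CPM.

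Between the genotypes none of the 7 tested genes was called in the retina by edgeR in hyperoxia, where 1 had an unadjusted p under 0.05 (12.6% of all tested genes) and 0.292% of all tested genes were called. Nor was any called in room air, where 0.00522% of genes were called and no member had an unadjusted p under 0.05, against 12.7% of all tested genes. The interaction called none of the 7 either, with 0.00522% of genes called. There 1 member had such a p, against 10.6% of all tested genes. DESeq2 called none in room air or in the interaction. Timp1 was 2.62-fold lower in KO-O2 than in WT-O2 (log2 -1.39 ± 0.43, edgeR adjusted p = 0.20), and DESeq2 called this difference (log2 -1.41, adjusted p = 0.061). Erythroid markers summed to 617 to 944 CPM in WT-O2 and 225 to 276 CPM in KO-O2, with 3 of the 4 tested called lower and 1 of the 6 at 0 in KO-O2, and their part in these values was not tested. Mmp12 was 1.88-fold lower in KO-O2 (log2 -0.91 ± 0.42, edgeR adjusted p = 0.41), with overlapping groups, and its interaction was log2 -1.43 ± 0.61 (edgeR adjusted p = 0.44).

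The 3 genes below the filter still had reads. Mmp10 had 2.39 to 12.3 counts in WT-O2 retinas (0.260, 0.0747 and 0.417 CPM) and at most 1.02 in WT-RA, 4.21 in KO-RA and 2.22 in KO-O2, so only WT-O2 had libraries above 5 counts. Mmp3 had at most 7.59 counts and Mmp8 at most 3.57 in any retina. With no filter, edgeR called none of the 3 in any of the 5 comparisons and none had an unadjusted p under 0.05, nor did DESeq2 give any.

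Compared per kilobase of the longest protein-coding transcript, the order of the genes differed between room air and hyperoxia in the lung. In WT-RA the mean levels were 153 CPM per kb for Mmp2, 129 for Timp3 and 88.9 for Mmp14, whose ranges over mice met, and then 6.07 or less for the others. In WT-O2 the order was Mmp2 (355 CPM per kb), Timp3 (278), Mmp14 (109), Timp1 (59.3), Mmp3 (19.0), Mmp10 (14.7) and Mmp19 (13.0), with the ranges of Mmp3, Mmp10 and Mmp19 meeting their neighbours. Mmp12 (6.53), Mmp8 (2.69) and Mmp9 (2.06) came last. In KO-O2 lungs Mmp2 (369), Timp3 (272), Mmp14 (115) and Timp1 (46.1) kept these places, and Mmp10 (11.8), Mmp3 (9.91) and Mmp19 (9.26) overlapped. In WT-RA retinas Timp3 (11.2 CPM per kb) and Mmp9 (6.68) were highest and overlapped, followed by Mmp2 (5.08), Mmp14 (3.93) and Timp1 (1.90), and in WT-O2 retinas Timp1 (12.7) and Timp3 (9.30) were highest and overlapped. Lung and retina were exposed and processed apart, so no test was made between them.

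Genes whose lung pattern was most like that of each called member were listed by Pearson's r of log2(CPM + 0.5) over the 12 lungs, a measure that mostly reflects the shared split between room air and hyperoxia. For Mmp10 these were Fosl1 (r = 0.996), Tmem43 and Srxn1, and for Timp1 Psrc1 (r = 0.996), Tmem43 and Ak1. For Mmp3 they were Lclat1 (r = 0.985), Pcx and Ifi211, for Mmp2 Susd2 (r = 0.995), Ak1 and Ddah1, and for Timp3 Tgfa (r = 0.986), Scarb2 and Slc12a7. Mmp12 was most like S100a4 (r = 0.957), Degs1 and Chil1, and Mmp19 like the chemokine Ccl11 (r = 0.987), Serpina3n and Cxcl16. Over the 12 retinas Timp1 was most like the monocyte chemokine Ccl2 (r = 0.966), Pvr and the urokinase receptor Plaur (r = 0.954), and Mmp12 like Thbs2 (r = 0.936), Spidr and Adm2.

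The rest of the MMP family showed both directions in the lung. Of 15 other MMP genes 9 were tested, and 1 rose and 1 fell in each genotype, with a median log2 value of 0.50 for WT and 0.20 for GSDMD-KO, set against -0.007 and -0.013 over all tested genes. Mmp13, a collagenase next to Mmp12 on chromosome 9, rose from 2.46 ± 0.821 to 20.5 ± 6.57 CPM in WT (mean ± SD, n = 3, log2 3.06 ± 0.37, edgeR adjusted p = 5.5e-05) and by log2 2.79 ± 0.38 in GSDMD-KO. Mmp28, an epithelial MMP, fell from 29.7 ± 6.39 to 5.28 ± 0.992 CPM in WT (log2 -2.49 ± 0.16, edgeR adjusted p = 2.9e-08) and changed by log2 -2.81 ± 0.16 in GSDMD-KO. Lung epithelium markers summed to 28689 to 34059 CPM in room air and 19734 to 25485 CPM in hyperoxia, and their part in the Mmp28 change was not tested. Of 6 other inhibitors, 1 rose and 2 fell in each genotype. Reck, a membrane-anchored MMP inhibitor, fell from 83.5 ± 4.2 to 36.9 ± 2.96 CPM in WT (log2 -1.18 ± 0.079, edgeR adjusted p = 5.5e-08), and A2m, a broad protease trap, from 14.6 ± 6.39 to 3.88 ± 0.941 CPM (log2 -1.91 ± 0.30, edgeR adjusted p = 3.0e-04). Plasmin, from the plasminogen system, cleaves pro-MMPs. A list of MMP activation and plasminogen system genes also held Furin, Pcsk5, Pcsk6, Bsg, Cd44 and Lcn2. Of its 12 tested genes 6 rose and none fell in either genotype (median log2 0.99 in WT and 1.00 in GSDMD-KO). Plau, the urokinase activator, rose from 5.18 ± 0.586 to 25.8 ± 3.03 CPM (log2 2.32 ± 0.16, edgeR adjusted p = 8.2e-08).

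Among the regulators known to induce MMP transcription, 5 of 18 rose and 1 fell in WT lungs, and 8 of 18 rose in GSDMD-KO lungs (median log2 0.57 and 0.81). Fosl1, an AP-1 subunit, rose from 0.151 ± 0.0175 to 16.5 ± 5.66 CPM in WT and was 0.125 ± 0.0701 CPM in KO-RA and 11.0 ± 4.56 CPM in KO-O2. Fosl1 and Il6, both in these counts, passed the filter through the hyperoxic groups only. Junb, another AP-1 subunit, rose from 68.6 ± 8.52 to 178 ± 47.2 CPM in WT (log2 1.37 ± 0.22), and Ets1 fell from 314 ± 22.2 to 145 ± 9.01 CPM (log2 -1.11 ± 0.09). Of 16 matrix substrates 3 rose in each genotype (median log2 0.62 and 0.59), with fibronectin (Fn1) at 1710 ± 131 CPM in WT-RA and 4916 ± 882 CPM in WT-O2 (log2 1.52 ± 0.14, edgeR adjusted p = 2e-06) and versican (Vcan) at log2 2.77 ± 0.28. Of 14 ADAM and ADAMTS proteases 3 rose in WT and 2 in GSDMD-KO (median log2 0.19 and 0.23), led by Adam12 (log2 1.67 ± 0.11 and 1.72 ± 0.11). No gene of these 6 lists, 75 tested in all, was called between the genotypes in the lung by edgeR, with an unadjusted p under 0.05 for 4 in hyperoxia and 12 in room air (6.21% and 10.5% of all tested genes), and DESeq2 called none in hyperoxia and 1 (Fosb) in room air.

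In the retina 1 of 8 other MMP genes rose in each genotype, Mmp25, a leukocyte MMP anchored to the membrane, from 0.319 ± 0.0699 to 1.31 ± 0.299 CPM in WT, a gene that passed the filter through the O2 groups. The list of MMP activation and plasminogen system genes had 4 of 11 genes rise in WT and 2 of 11 in GSDMD-KO (median log2 1.16 and 0.41), with Lcn2 among them in both. The urokinase receptor Plaur went from 0.746 ± 0.0746 to 3.10 ± 1.32 CPM in WT (log2 2.04 ± 0.38, edgeR adjusted p = 0.020) and rose by log2 2.27 ± 0.39 in GSDMD-KO. Among the MMP inducers 6 of 14 rose in WT and 4 of 14 in GSDMD-KO (median log2 1.05 and 0.55), with Fosl2 at log2 1.53 ± 0.27 in WT and Junb at 1.56 ± 0.29 in WT and 1.25 ± 0.28 in GSDMD-KO. Of 6 other inhibitors 1 rose in WT (Tfpi2, from 0.242 ± 0.0946 to 1.24 ± 0.148 CPM, which passed the filter only with the O2 groups) and none in GSDMD-KO, and of 16 matrix substrates 3 rose in each (median log2 0.70 and 0.58), with Fn1 at log2 1.63 ± 0.22 and 1.62 ± 0.22. Of 14 ADAM and ADAMTS proteases 2 rose in WT (Adam12 and Adamts12), of which Adamts12 passed the filter only with the O2 groups. In GSDMD-KO Adam8 fell (log2 -1.05 ± 0.21, edgeR adjusted p = 0.022). Adam8, a sheddase of leukocytes and glia, was also the 1 gene of these 6 lists, 69 tested in all, called between genotypes in the retina. It was at 5.45 ± 0.767 CPM in WT-O2 and 2.15 ± 0.47 CPM in KO-O2 (log2 -1.34 ± 0.21, edgeR adjusted p = 0.029). Of the 69 genes, 10 had an unadjusted p under 0.05 by edgeR in hyperoxia and 3 in room air, against 12.6% and 12.7% of all tested genes. In hyperoxia 0.292% of all tested genes were called. Endothelial markers, 6 genes with none at 0, summed to 104 to 135 CPM in room-air and 179 to 241 CPM in O2 retinas. Their part in the changes of these lists was not tested.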

How the data were processed

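RNA-seq of 12 lungs and 12 retinas was used. The authors quantified paired-end reads with kallisto, brought them to the gene level with tximport (settings not stated), and deposited expected counts (estimated counts that need not be whole) for each tissue, without scaling for depth. The labels name mm10 and the paper GRCm39, the tables' gene identifiers differ in release, and 44.9% of nonzero lung values but 0.35% of nonzero retina values were whole (within 0.001), so nothing was tested between tissues. A label on treatment described cultured fat cells and was not used.

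Symbols were assigned by Ensembl identifier. The 10 genes and all lists were chosen with earlier results of these data known. Counts were rounded and fitted in R 4.3.3 with edgeR 4.0.16, with all 12 samples of a tissue in 1 model with a term per group, TMM normalization, filterByExpr, and the quasi-likelihood test with Benjamini-Hochberg adjustment over all genes. The interaction was called at an adjusted p under 0.1 with no fold limit. SE is the absolute log2 change over the square root of F. Sex was read from Y-linked RNA above 20 CPM, and libraries with over 1000 CPM of lens markers were called lens-rich. Scripts were tested on simulated counts. Genes were named as follows: all 10 genes, at most 3 genes per list with the smallest p, the 3 genes most correlated with each called member, and Gsdmd. Not every gene the rule picks is reported. Alternatives were RLE normalization, library totals, no filter, no fold limit, sex as a covariate, only the groups compared, each mouse left out, DESeq2 1.42.0 and, added after seeing the data, Mmp3 summed with Mmp10 and the lens-rich libraries left out. Promoters and transcripts were read from RefSeq (GRCm38.p6) and GENCODE M21 (GRCm38). The precision rests on 3 mice per group and, for genes of few counts, on counting error as well.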

Additional observations from a re-analysis of the deposited data

How the results depend on the processing

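No change of the 10 genes with an unadjusted p under 0.05 turned its direction in any alternative, while those with a larger p turned in 25 of 498 fits in the lung and 35 of 548 in the retina, none of them called. Without the fold limit 8 of the 10 genes were called for hyperoxia in the lungs of each genotype, and 3 of 7 in WT and 2 of 7 in GSDMD-KO retinas. The counts over all genes were then 8268 and 7857 for hyperoxia in WT and GSDMD-KO lungs, 7 for KO-O2 against WT-O2 and 82 for KO-RA against WT-RA lungs. In the retina they were 990, 1500 and 244 for hyperoxia in WT, in GSDMD-KO and for KO-O2 against WT-O2. With sex as a covariate 0 of the 10 genes were called for KO-RA against WT-RA lungs, 1 for hyperoxia in WT retinas and 0 in GSDMD-KO retinas, and over all genes 2 for KO-O2 against WT-O2 lungs, 0 for KO-RA against WT-RA and 0 for the interaction. DESeq2 called 32, 70 and 110 genes for the genotype difference in O2, that in RA and the interaction in the lung, where edgeR called 4, 23 and 1, and 635, 658, 164, 63 and 547 genes in the 5 retinal comparisons, where edgeR called 391, 420, 56, 1 and 1, with 1 member (Timp1) for KO-O2 against WT-O2 retinas. Without the 3 lens-rich retinas 0 members were called for hyperoxia in GSDMD-KO, and 27, 0 and 0 genes for the genotype difference in O2, that in RA and the interaction. Fitting only the groups compared gave 8 genes for KO-O2 against WT-O2 and 10 for KO-RA against WT-RA lungs and 0 for KO-RA against WT-RA retinas, and no filter gave 2 for the lung interaction. Scaling by library totals gave 777, 43 and 0 retinal genes for hyperoxia in WT, the genotype difference in RA and the interaction, where it moved the median log2 change of all genes to 0.24, 0.17 and -0.19. The cause of these changes was not tested, apart from the fewer samples, genes or limits that each alternative has by construction.

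Leaving out 1 mouse at a time gave 4 to 7 members and 1865 to 2069 genes for hyperoxia in WT lungs, 5 to 6 members in GSDMD-KO lungs, 1 to 23 genes for KO-O2 against WT-O2, 0 to 1 members and 1 to 109 genes for KO-RA against WT-RA and 0 to 45 genes for the interaction. In the retina it gave 1 to 2 members and 196 to 504 genes for hyperoxia in WT, 0 to 1 members and 151 to 439 genes in GSDMD-KO, 6 to 83 genes for KO-O2 against WT-O2, 0 to 1 for KO-RA against WT-RA and 0 to 340 for the interaction. Mmp3 and Mmp8 had fewer than 8 counts in every retina, which limits what can be said of them there.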
